A study of Mus musculus with 8 samples.

Results

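The MHC class I presentation genes described here are 10 genes, B2m, H2-D1, H2-K1, H2-Q6, H2-Q7, H2-T23, Tap1, Tap2, Tapbp and Nlrc5, found by symbol among 37315 Ensembl gene identifiers counted in CA1 of the mouse hippocampus. All 10 were among the 14788 genes that passed the filter on low counts. The set was selected on its measured counts in these same libraries, SIK3 guide against control guide, so the values of the 10 in that contrast are a description here and support nothing further.

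RNA came from 8 mice that express Cas9. Into 4 of them went, by stereotaxic injection, a guide RNA against SIK3 (a salt-inducible kinase) in an adeno-associated virus (AAV), and into the other 4 a control guide in the same kind of virus. The first group carries the genotype label KO and the second Control, and each holds 2 males and 2 females. All 8 animals share Cas9, the injection and an AAV; the sources used here do not give the promoter that drives Cas9, the cells that took up the virus, the age of the mice or the time after injection. Each mouse gave 1 library, made from total RNA with a stranded mRNA kit and numbered within its group in listing order, so Control 1, Control 3, KO 1 and KO 2 are males and Control 2, Control 4, KO 3 and KO 4 are females. Totals were 13561662 to 15165413 counts in males and 16743701 to 18619928 in females, so depth goes with sex. Sik3 itself was at 137 to 165 CPM (counts scaled to library size) in Control mice and 75.3 to 98.45 CPM in KO mice, so the targeted transcript was lower in all 4 KO libraries, in both sexes.

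MHC class I molecules show peptides from inside a cell at its surface. A heavy chain (H2-K1, H2-D1 and the non-classical H2-Q6, H2-Q7 and H2-T23) pairs with the light chain B2m in the endoplasmic reticulum. The peptides are pumped in by the transporter that Tap1 and Tap2 form, and Tapbp (tapasin) holds the empty molecule beside that transporter until a peptide binds. Nlrc5 is the transactivator that acts at class I promoters through proteins bound to their X and Y boxes, and interferons raise the whole set. In the brain class I is known to be low in resting neurons and higher in glia and endothelium, and class I molecules have been studied at synapses as well as in immune surveillance.

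Of the 10 genes, 8 lie in the MHC region of chromosome 17 (GRCm38, GENCODE M21), between Tapbp (33915899 to 33929292, plus strand) and H2-T23 (36029773 to 36032855, minus strand). B2m lies on chromosome 2 (122147686 to 122153083) and Nlrc5 on chromosome 8 (94434356 to 94527272). Promoters of 8 of the 10, from 250 bases before to 50 after the annotated start, were found in RefSeq (GRCm38.p6); Tap2 and Nlrc5 were not matched. Those of 3 heavy-chain genes and of B2m are shown as examples of genes that were high in both KO females, as described next. H2-Q6 was high in the male KO 2 as well. The promoter of H2-D1, also high in both KO females, is not shown. Each stretch runs 5′ to 3′ on the gene's own strand and ends before the annotated start. Capitals mark matches to 5 letter strings searched on both strands: GGGATTCCC (the kB site of class I promoters), AGTTTCNNT and GAAANNGAA (interferon response strings), TGACG (a core of cyclic AMP response sites and of the X box) and GATTGG (the Y box, CCAATC on the other strand).
H2-K1: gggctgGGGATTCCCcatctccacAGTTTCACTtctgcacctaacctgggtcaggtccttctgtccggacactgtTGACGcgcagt
H2-Q6: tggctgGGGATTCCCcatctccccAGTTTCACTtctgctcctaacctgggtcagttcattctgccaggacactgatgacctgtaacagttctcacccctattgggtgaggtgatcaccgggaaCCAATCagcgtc
H2-Q7: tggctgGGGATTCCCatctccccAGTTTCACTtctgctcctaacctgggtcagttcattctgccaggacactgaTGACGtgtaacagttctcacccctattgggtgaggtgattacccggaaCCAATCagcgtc
B2m: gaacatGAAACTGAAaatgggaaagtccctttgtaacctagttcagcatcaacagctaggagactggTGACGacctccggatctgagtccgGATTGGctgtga

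These stretches are chr17:34000378-34000463 (minus strand) for H2-K1, chr17:35424672-35424806 (plus strand) for H2-Q6, chr17:35439017-35439150 (plus strand) for H2-Q7 and chr2:122147542-122147644 (plus strand) for B2m. In H2-K1, H2-Q6, H2-Q7 and also H2-D1, GGGATTCCC was followed by AGTTTCACT in the same order. Each of these strings was in 4 of the 8 promoters matched, against 0.353% of the 32851 promoters of this length for GGGATTCCC and 4.94% for AGTTTCNNT. GAAANNGAA was in 2 of the 8, B2m and H2-T23, and in 8.56% of all. GATTGG was in 7 of the 8, all but Tapbp, and in 16.1% of all; in H2-K1 it lies just after the annotated start and outside the stretch shown. TGACG was in 5 of the 8 (B2m, H2-D1, H2-K1, H2-Q7 and Tap1) and in 20.8% of all. H2-Q6 and H2-Q7 have similar promoters, and H2-Q6 lacks TGACG. A match describes letters only, the strings do not overlap one another in the stretches shown, and AGTTTCNNT was chosen after the promoters were read. GGGATTCCC was searched because it is known from class I promoters. The 4 heavy-chain promoters that hold it are alike in sequence around it, so their matches are not independent of one another. The shares over all promoters are therefore a description and support nothing further.

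Class I transcripts were high in both KO females and near the Control level in both KO males. With each gene's log2 CPM set to 0 at its Control mean, the median over the 10 genes was 1.23 in KO 3 and 1.24 in KO 4, and 0.042 and 0.16 in KO 1 and KO 2. In the Control libraries this median ran from -0.14 to 0.12. KO 3 lay above all 6 libraries that are not KO females for 10 of the 10 genes, against 11.4% of all tested genes. KO 4 did so for 9, all but Tapbp, against 19.2%. Both KO females lay above both Control females for 10 of the 10, against 25.1% of all tested genes, and above all the other 6 libraries for 9 of the 10, against 5.14%. For 6 of the 10 the lower KO female was at least 1.5 times the highest of the other 6 libraries, against 0.108%. H2-Q7 is in each of these counts, and it passed the filter on low counts only through the KO females. The summed level of the 10 genes was 86.0 to 94.4 CPM in Control mice and 97.1, 97.95, 169.5 and 192.8 CPM in KO 1 to 4. The KO males lay above both Control males for 3 of the 10 genes, B2m, H2-Q6 and Nlrc5, against 11.8% of all tested genes.

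**Figure D1:**
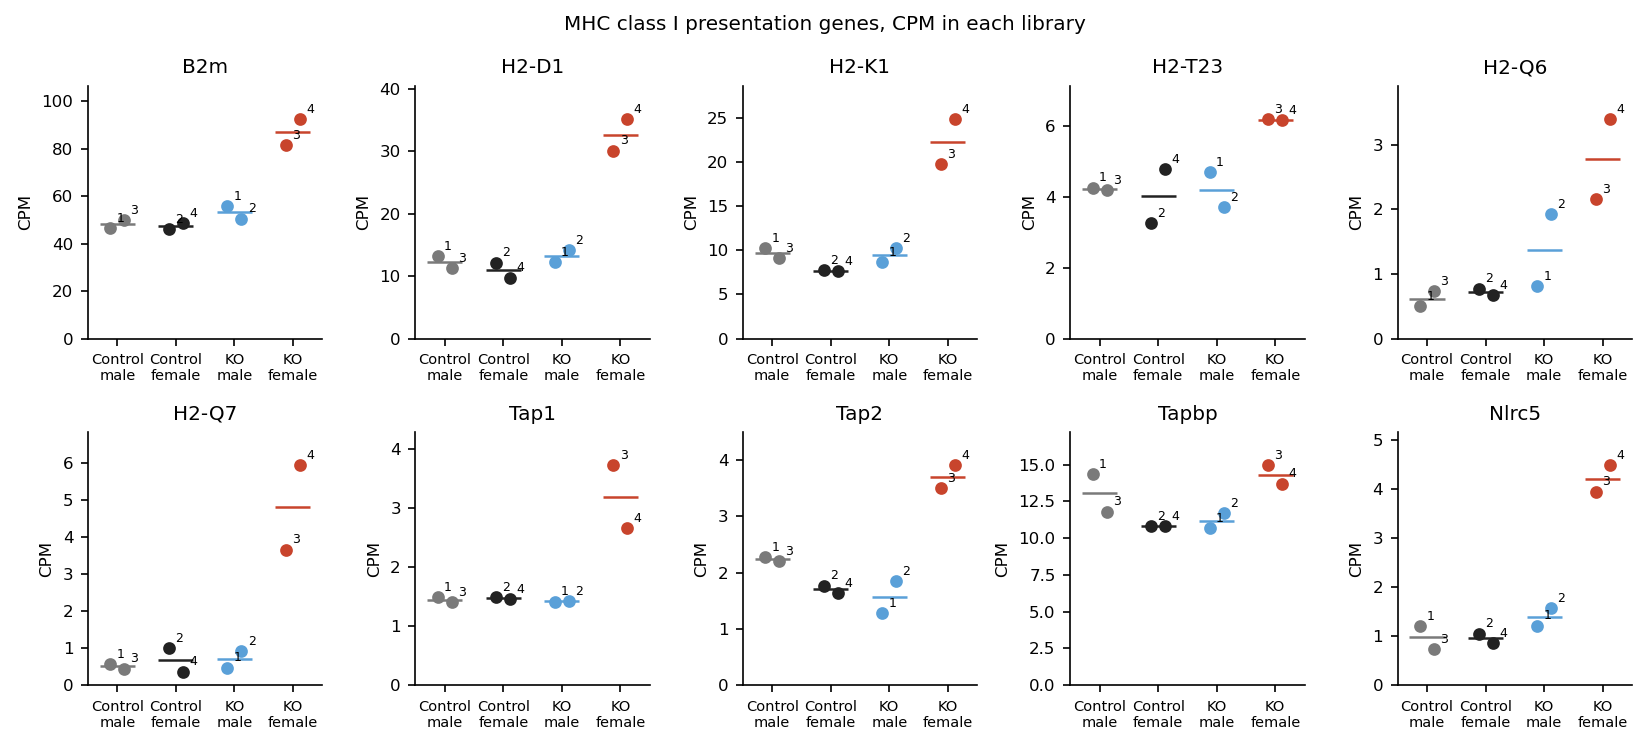
CPM (y axis, from 0) of each of the 10 MHC class I presentation genes in the 8 libraries, by guide and sex; points are single mice with their library number and bars are means of 2. For 9 genes both KO females lie above the other 6 libraries, and for Tapbp KO 4 lies below Control 1.

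B2m, the light chain that every class I molecule needs, was at 46.4, 45.97, 49.9 and 48.5 CPM in Control 1 to 4 and at 55.7, 50.5, 81.6 and 92.5 CPM in KO 1 to 4. All 4 KO libraries lay above all 4 Control libraries, and the KO females stood far above the KO males. The Control mean was 47.7 ± 1.84 CPM and the KO mean 70.1 ± 20.2 CPM (SD, n = 4 in either group), so the KO libraries varied much more among themselves (28.8% of their mean against 3.85%). No 50-base stretch of the annotated B2m transcripts occurs in another annotated gene, so its counts are the least affected by shared sequence.

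The classical heavy chains followed the same libraries with a larger ratio. H2-D1 was at 13.1, 12.1, 11.3 and 9.76 CPM in Control 1 to 4 and at 12.2, 14.2, 30.1 and 35.2 CPM in KO 1 to 4. H2-K1 was at 10.2, 7.73, 9.14 and 7.64 CPM in Control 1 to 4 and at 8.60, 10.19, 19.7 and 24.85 CPM in KO 1 to 4. Both KO females exceeded every other library, while the KO males mixed with the Control libraries apart from KO 2 for H2-D1. The mean of the KO females was 2.98 times that of the Control females for H2-D1 and 2.90 times for H2-K1, against 1.84 times for B2m. In males the same ratios were 1.08, 0.971 and 1.10.

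H2-D1 and H2-K1 kept a similar proportion to each other across the libraries: the ratio of their CPM was 1.23 to 1.57 in Control mice and 1.39 to 1.53 in KO mice. The light chain did not keep pace with them. The ratio of B2m to the sum of H2-D1 and H2-K1 was 1.99 to 2.79 in Control mice and 2.67, 2.07, 1.64 and 1.54 in KO 1 to 4, so both KO females had lower values than the other 6 libraries.

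The non-classical heavy chains ranged from the largest ratio of the set to one of the smallest. H2-Q7, one of the genes that encode the Qa-2 antigen, was at 0.568, 0.993, 0.442 and 0.364 CPM in Control 1 to 4 and at 0.471, 0.927, 3.67 and 5.94 CPM in KO 1 to 4. These rest on 8, 18, 6 and 6 counts and on 7, 13, 68 and 105 counts. The KO females stood 7.08 times above the Control females on average, and the KO males fell inside the Control range. Apart from the KO females, only Control 2 and KO 2 held at least 10 counts. H2-Q7 therefore passed the filter on low counts only through the KO females, the group where it was high. H2-Q6, its neighbour, was at 0.497, 0.773, 0.737 and 0.667 CPM in Control 1 to 4 and at 0.807, 1.93, 2.16 and 3.397 CPM in KO 1 to 4, on 7 to 14 and 12 to 60 counts. It was above the Control range in all 4 KO libraries, and KO 2, a male, was close to KO 3. H2-T23, which encodes Qa-1, was at 4.26, 3.26, 4.20 and 4.79 CPM in Control 1 to 4 and at 4.71, 3.71, 6.20 and 6.17 CPM in KO 1 to 4. Its KO females agreed closely with each other and stood 1.54 times above the Control females.

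Reads of these heavy chains cannot always be assigned to 1 gene. Of the distinct 50-base stretches in the annotated transcripts, 35.0% in H2-Q6 and 26.5% in H2-Q7 also occur in another gene, against 14.5% in H2-T23, 12.8% in H2-D1 and 9.63% in H2-K1. At 100 bases the shares were 13%, 12%, 3.15%, 3.59% and 0.957%. H2-Q6 shares most with H2-Q7 (13.9% of its 50-base stretches) and H2-Q4 (12.3%), and H2-Q7 with H2-Q10 (14.0%). The sources used here do not give the read length, and how H2-Q6 and H2-Q7 divide their reads is uncertain.

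Among the loading genes the transporter subunits stood apart in the KO females and Tapbp barely did. Tap1 was at 1.49, 1.49, 1.40 and 1.46 CPM in Control 1 to 4 and at 1.41, 1.43, 3.72 and 2.66 CPM in KO 1 to 4, so 6 libraries lay within a narrow band and the KO females above it. Tap2, its partner, was at 2.27, 1.77, 2.21 and 1.64 CPM in Control 1 to 4 and at 1.28, 1.85, 3.51 and 3.91 CPM in KO 1 to 4, with the male KO 1 the lowest of all. Tapbp, which bridges the transporter and the heavy chain, was at 14.35, 10.8, 11.8 and 10.8 CPM in Control 1 to 4 and at 10.7, 11.7, 14.9 and 13.7 CPM in KO 1 to 4, and its groups overlapped widely. The mean of the KO females over that of the Control females was 2.17 for Tap1, 2.18 for Tap2 and 1.33 for Tapbp. Tap2 and Tapbp were the 2 genes of the 10 with both KO females above both Control females and both KO males below both Control males, as were 2.31% of all tested genes. Exons of Tap1 overlap those of Psmb9 on the other strand over 212 bases, exons of Tap2 overlap Gm15821 on the other strand over 533 bases and those of Tapbp overlap Gm19412 on the other strand over 904 bases; without a stated strand setting in the counting, these counts are uncertain to that extent.

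Nlrc5, the transactivator, was at 1.21, 1.05, 0.737 and 0.849 CPM in Control 1 to 4 and at 1.21, 1.57, 3.94 and 4.47 CPM in KO 1 to 4, on 10 to 19 and 18 to 79 counts. KO 1 lay just above the highest Control library and KO 2 above that, while the KO females were 4.43 times the Control females on average. B2m, H2-Q6 and Nlrc5 were the 3 genes of the 10 whose KO and Control libraries did not overlap, against 0.933% of all tested genes with all 4 KO libraries above all 4 Control libraries. The margins were narrow. The lowest KO and the highest Control library were at 50.47 and 49.88 CPM for B2m and at 0.807 and 0.773 CPM for H2-Q6. For Nlrc5 they were at 1.210 and 1.207 CPM, on 18 and 17 counts.

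**Figure D2:**
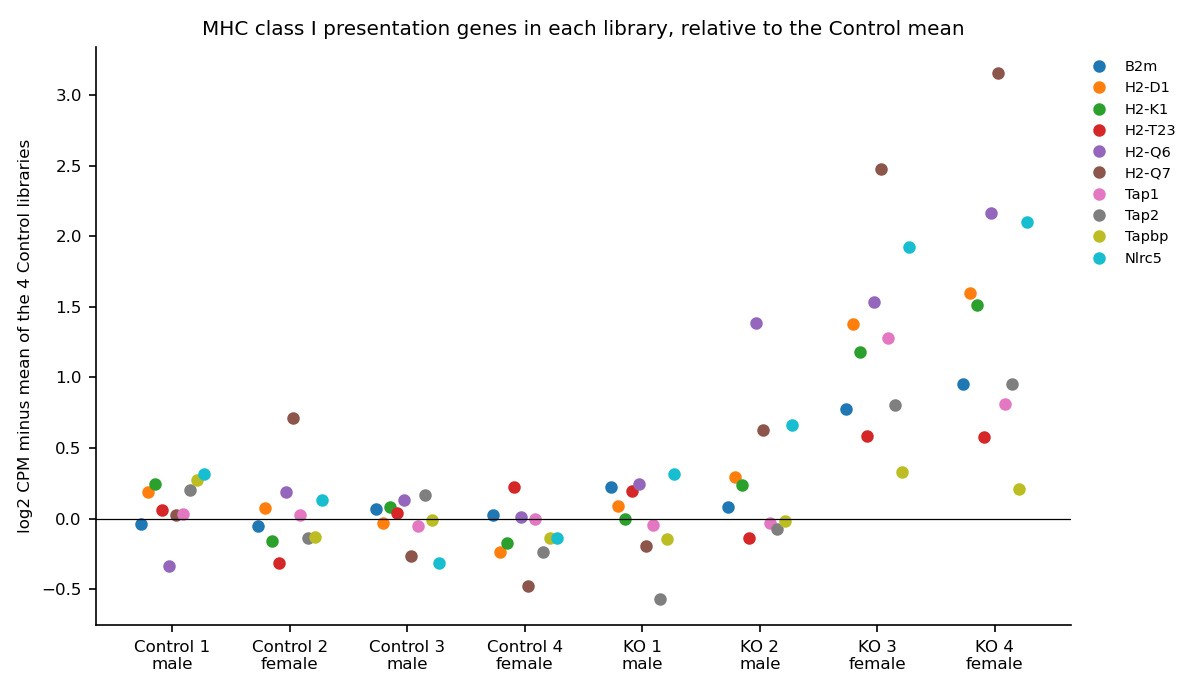
Log2 CPM (prior count of 2) of each of the 10 genes minus its mean over the 4 Control libraries (y axis) in each library (x axis). All 10 points lie above 0 in KO 3 and KO 4, with H2-Q7 highest and Tapbp lowest, while the points of KO 1 and KO 2 lie within or close to the span of the Control points, apart from H2-Q6 in KO 2.

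Per length, B2m dominated the set. In RPKM, which is CPM divided by the length of annotated exons in kilobases, B2m was at 55.4 ± 2.14 in Control mice, H2-D1 at 4.49 ± 0.56, Tapbp at 3.29 ± 0.46, H2-K1 at 2.96 ± 0.42 and H2-T23 at 1.43 ± 0.22 (SD, n = 4 each). Below them were Tap2 at 0.521 ± 0.084, H2-Q6 at 0.320 ± 0.059, Tap1 at 0.266 ± 0.0078, H2-Q7 at 0.139 ± 0.066 and Nlrc5 at 0.113 ± 0.025. The Control ranges of neighbours in this order overlapped for H2-D1 and Tapbp, Tapbp and H2-K1, H2-Q6 and Tap1, and H2-Q7 and Nlrc5. The KO females had mean levels of 101.2 RPKM for B2m, 12.7 for H2-D1 and 7.59 for H2-K1. H2-Q7 lay below Tap1 in Control mice and above it in the KO females, at 1.13 against 0.583 RPKM. The heavy-chain levels are uncertain on this scale too, since their reads can be shared. They also depend on the length used, the union of exons over all annotated transcripts. It was 860 bases for B2m, 2579 for H2-D1, 2938 for H2-K1, 2889 for H2-T23 and 4265 for H2-Q7. Which transcripts were present was not tested, so the order of genes on this scale is tied to these lengths.

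Fitted over all 14788 genes with sex as a covariate (edgeR quasi-likelihood test), the log2 fold change of KO against Control was positive for 10 of the 10 genes, against 51.5% of all tested genes, with a median of 0.72 against 0.0036 over all tested genes. It was largest for H2-Q7 (2.09 ± 0.45, SE), H2-Q6 (1.61 ± 0.33) and Nlrc5 (1.49 ± 0.31) and smallest for Tapbp (0.10 ± 0.13). B2m was at 0.52 ± 0.13, H2-D1 at 0.90 ± 0.24 and H2-K1 at 0.80 ± 0.25. At an adjusted p of 0.05, 0 of the 10 were called by edgeR, DESeq2 or limma voom, against 0.0135% of all genes by edgeR, and 7 of the 10 had an unadjusted p under 0.05 by edgeR, against 2.81% of all. Without both KO females the median was 0.053 and the values of H2-K1, H2-T23, Tap1, Tap2 and Tapbp turned negative, from -0.0060 for H2-T23 to -0.52 for Tap2. The guide term then compares KO males with Control males, as the contrast within males below does.

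Within females the log2 fold changes were positive for 10 of the 10, against 51.2% of all tested genes, and had a median of 1.33, against 0.0050 over all genes. They were 2.79 ± 0.42 for H2-Q7, 2.13 ± 0.30 for Nlrc5, 1.93 ± 0.42 for H2-Q6, 1.57 ± 0.15 for H2-D1, 1.54 ± 0.16 for H2-K1 and 0.88 ± 0.10 for B2m (SE; 2 mice in either group, the spread being estimated from all 8). Tap1 and Tap2 were at 1.11 ± 0.27 and 1.12 ± 0.26, H2-T23 at 0.63 ± 0.22 and Tapbp at 0.41 ± 0.14. The edgeR threshold was passed by 4 of the 10, H2-D1, H2-K1, B2m and Nlrc5, against 0.0406% of all genes, and 10 of the 10 had an unadjusted p under 0.05, against 7.11%. These shares over all genes are edgeR's alone. DESeq2, whose count over all genes is given further below, called 5 of the 10 and limma voom 4. That count was 1 without Control 2, 0 without Control 4, and 3 without KO 3 or without KO 4, where Nlrc5 was lost; the median stayed at 1.26 to 1.44 when any 1 library was left out. H2-Q7 crossed the threshold with other scalings (edgeR, adjusted p = 0.0535 as fitted, 0.0473 with RLE size factors).

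Within males the median was 0.053, against -0.0041 over all genes, and 5 of the 10 values were positive, against 48.6% of all genes. They ran from -0.52 ± 0.29 for Tap2 to 1.13 ± 0.51 for H2-Q6, with H2-D1 at 0.11 ± 0.16, H2-K1 at -0.045 ± 0.17 and B2m at 0.14 ± 0.10 (SE). By edgeR 0 of the 10 were called, as by DESeq2 and limma voom, against 0% of all genes by edgeR, and 1, H2-Q6, had an unadjusted p under 0.05, against 1.83% of all.

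Whether the guide contrast differed between the sexes is the interaction of sex and guide. Its log2 value, females minus males, was positive for 10 of the 10 genes, against 51.9% of all tested genes, and was 1.58 ± 0.23 for H2-K1, 1.46 ± 0.22 for H2-D1 and 0.74 ± 0.14 for B2m (SE). By edgeR 0 of the 10 passed, against 0% of all genes, and the smallest adjusted p was 0.167, for H2-K1 and H2-D1. An unadjusted p under 0.05 was reached by 8 of the 10, all but H2-Q6 and H2-T23, against 5.42% of all genes by edgeR. DESeq2, whose count over all genes is given further below, called 2 of the 10 and limma voom 0. With 2 mice per sex and guide, a difference between the sexes and a difference between 2 particular mice and the rest cannot be told apart.

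**Figure D3:**
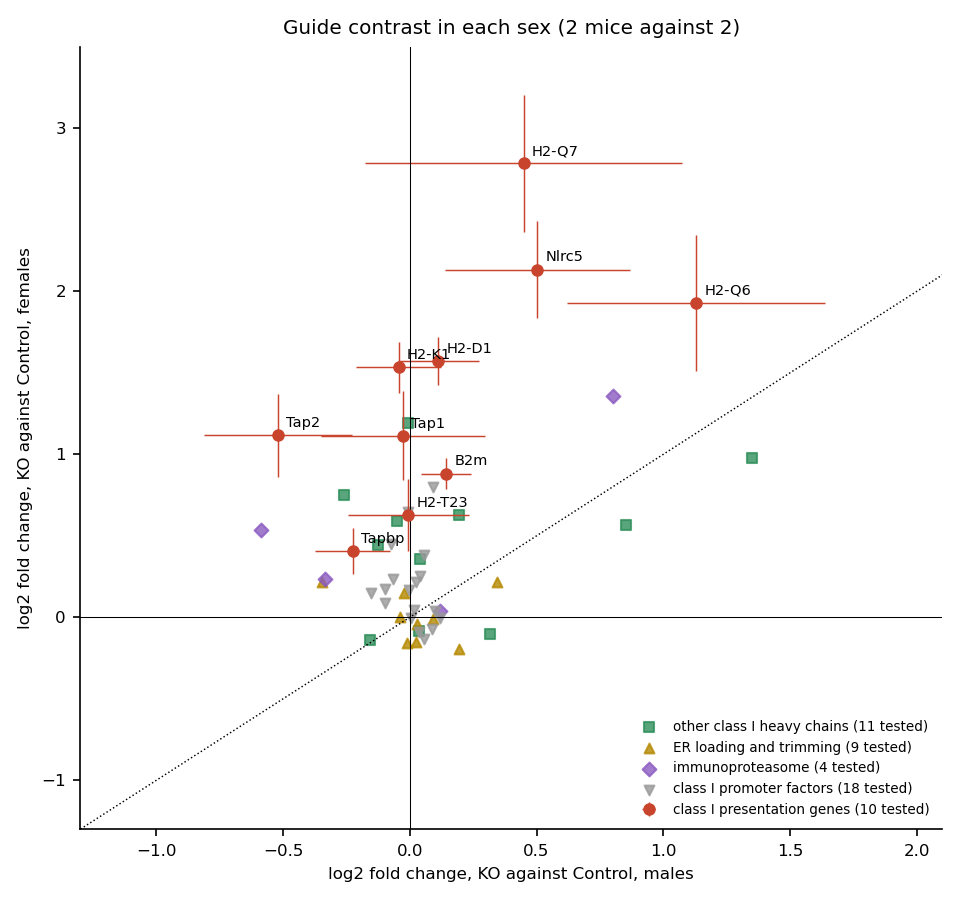
Log2 fold change of KO against Control in males (x axis) and females (y axis) from the edgeR fit, for the 10 genes (circles, bars are SE) and 4 related lists; the dotted line marks equal values. All 10 circles lie above the dotted line, with H2-Q7 highest at 2.79 in females, and the ER loading genes lie closer to 0 on both axes than H2-Q6, H2-Q7 and Nlrc5.

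A contrast that the choice of genes did not use, females against males among the 4 Control mice, was added after the values were seen. The log2 values, females minus males, were positive for 3 of the 10, against 44.6% of all genes, and ran from -0.39 ± 0.28 for Tap2 to 0.44 ± 0.61 for H2-Q7 (SE), with B2m at -0.027 ± 0.10 and H2-K1 at -0.33 ± 0.17. By edgeR 0 of the 10 passed, as by DESeq2 and limma voom, against 0.0541% of all genes, and 0 had an unadjusted p under 0.05, against 5.04% of all. Over all 8 mice, with the guide as a covariate, the sex term was positive for 10 of the 10, against 47.9% of all genes, from 0.045 ± 0.13 for Tapbp to 2.02 ± 0.46 for H2-Q7. It was passed by 0 of the 10 in edgeR, DESeq2 and limma voom, against 0.0609% of all genes by edgeR, while 6 had an unadjusted p under 0.05, against 6.05%; this term includes the KO females.

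Other genes of the pathway came from lists written with earlier results of these data known, and in them 0 genes passed the edgeR test in either direction, in the guide contrast over all mice or within females. Over all genes edgeR called 0.0135% and 0.0406%, so a count of 0 says little about lists of this size. Of 20 further class I heavy-chain genes in the files, 11 were tested, 9 with positive values (51.5% of all genes) and a median of 0.24, and 2 had an unadjusted p under 0.05 (2.81% of all genes). These were H2-M3, which presents formylated peptides, at 1.13 ± 0.31, and H2-Q4 at 0.65 ± 0.22; H2-T10 was at 0.69 ± 0.34. H2-Q4 was at 4.55 to 5.75 CPM in Control mice and 5.71, 4.71, 11.8 and 11.2 CPM in KO 1 to 4, so both KO females were high, as for H2-K1. Within females H2-Q4 was at 1.19 ± 0.18, just short of the threshold (edgeR, adjusted p = 0.0536). H2-M3 was at 0.295 to 1.10 CPM in Control mice and 1.88, 1.07, 1.89 and 1.64 CPM in KO 1 to 4, so both KO females and the male KO 1 lay above the Control range.

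Genes of general loading and trimming in the endoplasmic reticulum were not high as a list. Of 9 tested genes for loading and trimming, 3 had positive values, against 51.5% of all genes, with a median of -0.0057. Erap1, which trims peptides in the endoplasmic reticulum, was at 0.28 ± 0.11. It was the 1 gene of these 9 with an unadjusted p under 0.05 (edgeR), against 2.81% of all genes. The chaperones Pdia3 and Canx were at -0.085 ± 0.071 and -0.064 ± 0.064. The cytosolic peptidases, 5 tested, had a median of -0.013, with Thop1 at 0.19, Lap3 at 0.071, Blmh at -0.019, Npepps at -0.013 and Tpp2 at -0.048. Their summed level was 392 to 403 CPM in Control mice and 383 to 410 CPM in KO mice.

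Of the immunoproteasome subunits, which replace their constitutive counterparts when interferon is present, Psmb8 was at 1.14 ± 0.40 and Psmb10 at 0.017 ± 0.27. Psme1 and Psme2, which form an activator that caps the proteasome, were at -0.039 ± 0.15 and 0.077 ± 0.11. Within females 4 of these 4 tested genes were positive, against 51.2% of all genes, with a median of 0.385. Within males 2 of the 4 were positive, against 48.6% of all genes, with a median of -0.108. Psmb10 was at 0.54 ± 0.30 within females and -0.59 ± 0.33 within males. Psme1 was at 0.23 ± 0.18 within females and -0.33 ± 0.18 within males. Psmb9 did not pass the filter and held 3 to 9 counts in Control mice and 4, 5, 19 and 23 counts in KO 1 to 4. The constitutive Psmb5, Psmb6 and Psmb7 were at 0.27 ± 0.13, 0.11 ± 0.10 and -0.11 ± 0.067. Among 18 factors that act at class I promoters or upstream of them, 14 had positive values with a median of 0.063, and 2, Irf8 among them, had an unadjusted p under 0.05, against 51.5% and 2.81% of all genes. Within females 13 of the 18 were positive with a median of 0.16, and 4 had an unadjusted p under 0.05, against 51.2% and 7.11% of all genes. Irf8, an interferon regulatory factor of myeloid cells, was at 0.47 ± 0.18 and Rela, a subunit of NF-kB, at 0.23 ± 0.14.

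Of the interferon transcripts, Ifnb1, Ifna2 and Ifna4 were listed at 0 in every library and Ifng had 1 count, in KO 4. Of the 12 listed interferon, receptor and kinase genes, 5 were at 0 in each Control library and in KO 1. In KO 2, KO 3 and KO 4, 4 were at 0, so another gene, not named here, held counts in KO 2 and KO 3. Of 7 tested receptor and kinase genes, Tyk2 was at 0.097 ± 0.096, Ifnar2 at -0.056 ± 0.12 and Ifngr2 at 0.044 ± 0.081, and their median was 0.014. Of receptors for class I, Pirb, known from work on synapses, was at 0.13 ± 0.25 and Cd160 at 0.010 ± 0.20. Cd8a held 0 counts in each Control library and 0, 2, 1 and 2 in KO 1 to 4.

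The genes whose profile over the 8 libraries was nearest to the mean of H2-D1 and H2-K1 were found by the root mean square distance of log2 CPM, each set to 0 at its Control mean. Outside the 10 genes the nearest were Igtp (0.14), H2-Q4 (0.23), C4b (0.28), Irgm2 (0.29), Uba7 (0.30), the predicted gene Gm8995 (0.31), Gbp2 (0.33), Zc3hav1 (0.34), Trim30d (0.34) and Irgm1 (0.34), where the value is the distance in log2 units over 8 libraries. Within the 10, Tap1 was at 0.30 and B2m at 0.32, while H2-Q7, with larger values in the KO females, was at 0.79 and Tapbp, with smaller ones, at 0.60. Igtp, a GTPase gene, was at 1.63 and 1.47 in KO 3 and KO 4 and at 0.093 and 0.22 in KO 1 and KO 2 on this scale.

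CA1 tissue was present in every library as its markers show, with the CA1 pyramidal list at 4502 to 5094 CPM in Control mice and 4675 to 5009 CPM in KO mice and none of its 7 genes at 0; dentate granule markers were present too, at 497 to 654 CPM over the 8 libraries. In tissue RNA, fewer cells of a type and less RNA per cell cannot be told apart. Markers of other cells that can carry class I were counted beside the 10 genes. Microglia markers (9 genes) summed to 271 to 289 CPM in Control mice, 286, 283 and 286 CPM in KO 1 to 3 and 337 CPM in KO 4. Border macrophage markers (5 genes) were at 7.88 to 10.8 CPM in Control mice and 8.20 and 11.9 CPM in KO 3 and KO 4; 1 of the 5 was at 0 in KO 3, as in 2 Control libraries and KO 2. Endothelial markers (8 genes) were at 254 to 267 CPM in Control mice and 262 to 279 CPM in KO mice, and astrocyte markers (7 genes) at 1772 to 1869 and 1815 to 1943 CPM. In KO 3 these 4 sums were 0.859 to 1.02 times their Control means, but a sum rests mostly on its most abundant genes. Gene by gene within females, 51.2% of all tested genes had a positive log2 fold change, 7.11% an unadjusted p under 0.05 (edgeR) and 0.0406% passed the adjusted threshold. The log2 fold change was positive for 8 of the 9 microglia markers, with a median of 0.27 against 0.0050 over all genes. Of these markers, 3 had an unadjusted p under 0.05, Cx3cr1 (0.35 ± 0.096), Sall1 (0.38 ± 0.15) and Tmem119 (0.64 ± 0.25), and 0 passed the adjusted edgeR threshold. Endothelial markers were positive for 6 of 8 with a median of 0.046 and 0 such p. Astrocyte markers were positive for 6 of 7 with a median of 0.072 (Gfap, at 0.30 ± 0.12, had an unadjusted p under 0.05). Meningeal fibroblast markers moved further, with 6 of 6 positive, a median of 0.449 and 1 unadjusted p under 0.05. Pericyte and smooth muscle markers were positive for 5 of 6, with a median of 0.123 and 2 unadjusted p under 0.05. In these 2 lists 0 genes passed the adjusted edgeR threshold. The part of these cells in the class I levels was not tested.

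KO 4 differed from KO 3 in the markers of blood-borne cells. T and NK cell markers (14 genes) held 5 to 11 counts in Control mice, 12 and 14 in the KO males, 21 in KO 3 and 34 in KO 4, with 8 of the 14 at 0 in KO 3 and 4 at 0 in KO 4. In Control libraries 9 to 11 of the 14 were at 0, and 9 and 8 of them in KO 1 and KO 2. The T and NK sum in CPM was 2.12 times its Control mean in KO 3 and 3.6 times in KO 4. Among the genes at 0 in both KO females were Cd3d and Ncr1, and Cd3e was at 0 in KO 3 and held 2 counts in KO 4. These genes were picked with their values in view and do not stand for the list. Its other genes held all 21 counts of KO 3 and all but 2 of the 34 counts of KO 4. Apart from Cd8a, given above, those others are given here only by the sum. Monocyte and neutrophil markers (7 genes) held 5 to 19 counts in Control mice, 14 to 16 in KO 1 to 3 and 57 in KO 4. B and plasma cell markers (7 genes) held 14 to 23 counts in Control mice, 16 to 28 in KO 1 to 3 and 655 in KO 4, of which Igkc held 478 and Jchain 166. MHC class II genes (6 genes) summed to 6.06 to 6.75 CPM in Control mice, 7.33 and 6.63 CPM in the KO males, 9.39 CPM in KO 3 and 19.98 CPM in KO 4; H2-DMa, the 1 of them that was tested, was at 0.16 ± 0.13. Their part was not tested either; the median log2 fold change of the 10 genes within females was 1.34 without KO 4 and 1.44 without KO 3.

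**Figure D4:**
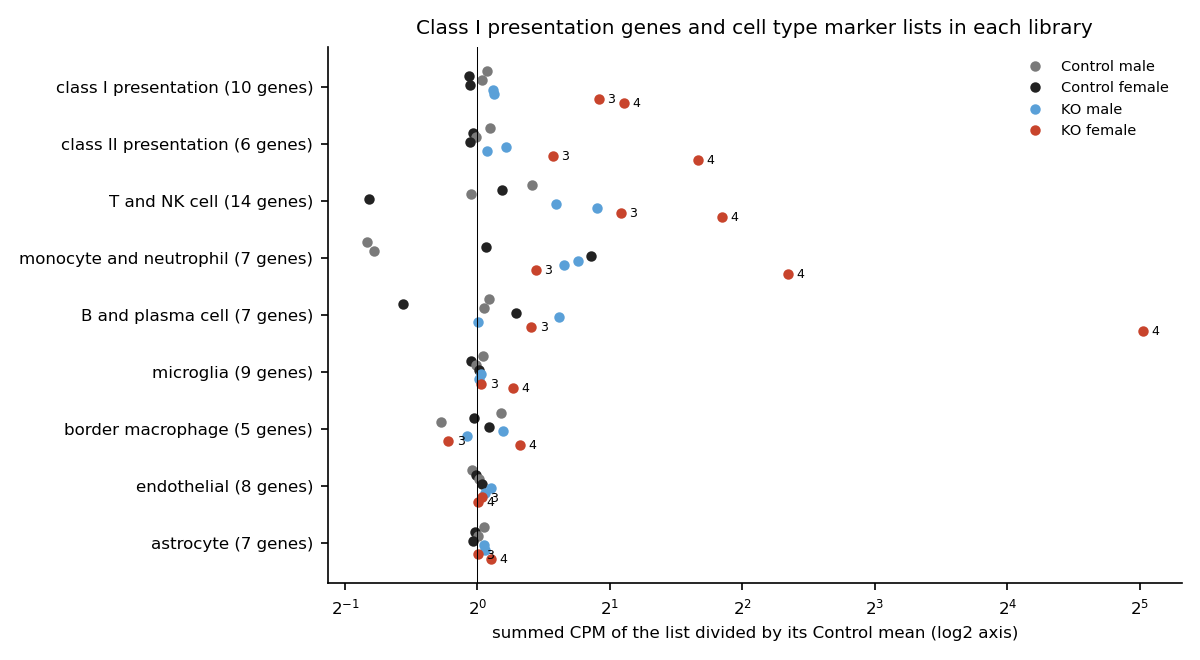
Summed CPM of the 10 genes and of 8 marker lists in each library, divided by the Control mean of the same sum (x axis, log2 scale); colours give guide and sex, and KO 3 and KO 4 are numbered. The 10 genes are high in both KO females, microglia, endothelial and astrocyte sums stay near 1 in KO 3, and the B and plasma cell sum is 32.6 times the Control mean in KO 4.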

How the data were processed

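Per the labels' protocols, total RNA from CA1 of 8 mice went through a stranded mRNA kit. The authors deposited raw read counts per Ensembl gene, 1 file per mouse; the tools HTSeq 2.0.1, TopHat2 2.1.1 and Trimmomatic 0.33 and the mm10 build are named, without their roles, per the submitters' processing notes. The sources used here do not give strand setting, annotation release or filters. A table of the same counts for all mice was not used. Symbols matched 35449 of 37315 identifiers.

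The test was edgeR's (4.0.16, R 4.3.3) quasi-likelihood F test after TMM scaling and filterByExpr (count at least 10, total at least 15), with a Benjamini-Hochberg adjusted p of 0.05 as threshold. The guide and sex terms came from an additive fit, and the contrasts within each sex, within Control mice and the interaction from a fit of the 4 combinations of sex and guide. The SE is the size of the log2 fold change divided by the square root of F. CPM used TMM-scaled totals, log2 CPM a prior count of 2, and RPKM the union of GENCODE M21 exons. Depth was 13561662 to 18619928 counts; low genes rest on few counts, given beside their values. Alternatives were RLE and upper-quartile scaling, no filter, a mean CPM of at least 1, DESeq2 1.42.0, limma 3.58.1 voom, no covariate, and leaving out libraries. The procedure was tested on simulated counts. Labels state separate mice but no litter, virus lot or batch.

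The 10 genes, the lists and the rules were chosen with earlier results of these data known. Named besides the 10 were the 10 genes nearest in profile to H2-D1 and H2-K1 and, per pathway list, the 3 tested genes with the largest log2 fold change, or all where 5 or fewer were tested; a gene that this rule names is not reported here. Marker lists are given by their sums. Psmb9, Cd8a, the interferon genes, Igkc, Jchain, Cd74 and the microglia, astrocyte, T and NK genes are named outside this rule, chosen with their values in view.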

Additional observations from a re-analysis of the deposited data

Results flagged for a closer look

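For Tap2 and Tapbp the groups were separate in each sex, in opposite directions: both KO females lay above both Control females, and both KO males below both Control males, a pattern that 2.31% of all tested genes showed. The gap in males was small for Tapbp, where the higher KO male was at 11.69 CPM and the lower Control male at 11.79 CPM. The log2 fold change of Tap2 was -0.521 within males and 1.12 within females, and that of Tapbp was -0.225 within males and 0.41 within females. Within males the unadjusted p was 0.099 for Tap2 and 0.153 for Tapbp (edgeR). For neither gene did the interaction of sex and guide pass (edgeR, adjusted p = 0.765 for each).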

How the results depend on the processing

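Under every alternative the log2 fold changes of the 10 genes kept their direction within females. Over all mice they did so too, except without both KO females. There H2-K1 was at -0.044, H2-T23 at -0.0060, Tap1 at -0.028, Tap2 at -0.52 and Tapbp at -0.23. With only males left in the KO group, the guide term of that fit compares KO males with Control males. It therefore repeats the contrast within males and is not a separate result. With no filter on low counts, which adds genes with few counts to the fit, edgeR called 6 of the 10 over all mice (0 with the filter), 8 within females (4), 5 for the interaction (0) and 5 for sex (0), and over all genes 84 (2), 275 (6), 100 (0) and 112 (9), with 20 within males (0) and 41 for sex among Control mice (8). DESeq2 called 18 genes within females, 3 within males, 2 for the interaction (both among the 10), 19 for sex and 16 for sex among Control mice. Leaving out 1 library gave 0 to 5 of the 10 called within females, and over all genes 0 to 2 for the guide over all mice, 0 to 21 within females, 0 to 1 within males, 0 to 1 for the interaction, 7 to 13 for sex and 5 to 14 for sex among Control mice. Where this left 1 mouse in a sex and guide, that mouse is assumed to vary like the others. Without both KO females 0 genes were called over all mice. With a prior count of 0.5, 9 of the 10 genes nearest in profile were shared. No paired analysis was possible because the labels give no numbers shared between the groups. Depth limits H2-Q6, H2-Q7, Tap1, Tap2 and Nlrc5, which held as few as 6 counts in a library.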

Other observations

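The 2 KO females had close medians over the 10 genes (1.23 in KO 3 and 1.24 in KO 4, log2 CPM relative to the Control mean). Single genes differed, inside and outside the set. For the 10 genes the higher KO female was 1.005 times (H2-T23) to 1.62 times (H2-Q7) the lower one. Cd74, the class II invariant chain, was at 1.56 CPM in KO 3 and 7.53 CPM in KO 4, against 0.0713 to 1.008 CPM in the other 6 libraries. Tap1 was higher in KO 3 (69 counts against 47), and H2-Q7 was higher in KO 4 (105 counts against 68). These values were chosen after they were seen, and each rests on a single mouse.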
